A study of Homo sapiens with 12 samples.

Results

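SF539 and SNB19 are established human cell lines, both labelled as glioblastoma, and the 8 of 12 Affymetrix arrays described here compare them while each carried an siRNA against PARK2. The arrays were taken by line and siRNA label alone: 4 from SF539 and 4 from SNB19, in each line 2 with PARK2 siRNA#1 and 2 with PARK2 siRNA#2 (called siRNA1 and siRNA2 here), and a difference between lines was always taken within an siRNA. The remaining 4 arrays, 2 per line, came from cells given scramble siRNA and are used where a difference with the PARK2 siRNAs is set beside the same difference without them. All cells were transfected with Lipofectamine RNAiMAX in medium without antibiotics and collected 48 h later. SNB19 was grown in DMEM and SF539 in MEM, so what the line and what the medium contribute cannot be told apart. The PARK2 level is not analysed here. Nothing in the labels ties replicates to separate cultures. The p-values therefore measure only spread between the arrays at hand, possibly of technical origin, and 2 arrays a group limit the precision.

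PARK2 encodes parkin, a ubiquitin ligase that tags damaged mitochondria for removal. Glioblastoma is a brain tumour whose cells keep, to a varying degree, the programme of astrocytes and their precursors, with the filament protein GFAP, the fatty acid carrier FABP7 and the transcription factor SOX2 among its usual markers, while some cell lines carry more of a connective tissue programme of fibrillar collagens and contractile proteins. Type I interferon signals through its receptor and the STAT and IRF factors to a large set of antiviral genes and to the genes that load peptides on MHC class I.

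Array medians lay between 5.94 and 6.14 on the log2 scale and lower quartiles between 3.93 and 4.02. The values carry no detection call, so a level near or under the lower quartile has little signal over background and bounds any difference from it. Replicate arrays correlated across probe sets with r of 0.991 in the SF539 siRNA2 pair and up to 0.998 elsewhere. The median SD of that pair over genes was 0.132, against 0.0616 to 0.0852 in the other 5 groups. SF539 siRNA2 replicate 2 stood apart: the mean level of 42 matrix genes ranged from 7.84 to 8.75 over the SF539 arrays with PARK2 siRNA and that of 28 mitosis genes from 9.31 to 10.15, against 7.84 to 7.91 and 9.69 to 9.76 in SNB19. For several gene lists the counts without an SF539 siRNA2 array are given beside the main ones.

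The main question was how the expression of all genes differs between the lines with PARK2 siRNA. Of 8545 genes tested, 2379 were higher in SF539 and 2257 lower at a limma adjusted p under 0.05, in all 4636 genes or 54.3%. The difference was at least 4-fold for 267 genes higher and 284 lower in SF539, 3.12% and 3.32% of those tested and 6.45% together. Over all genes the median difference, SF539 minus SNB19 on the log2 scale, was 0.02, and this scale and direction hold for every difference given here unless stated. In 4001 genes, 46.8%, the 4 SF539 arrays did not overlap the 4 SNB19 arrays.

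**Figure D1:**
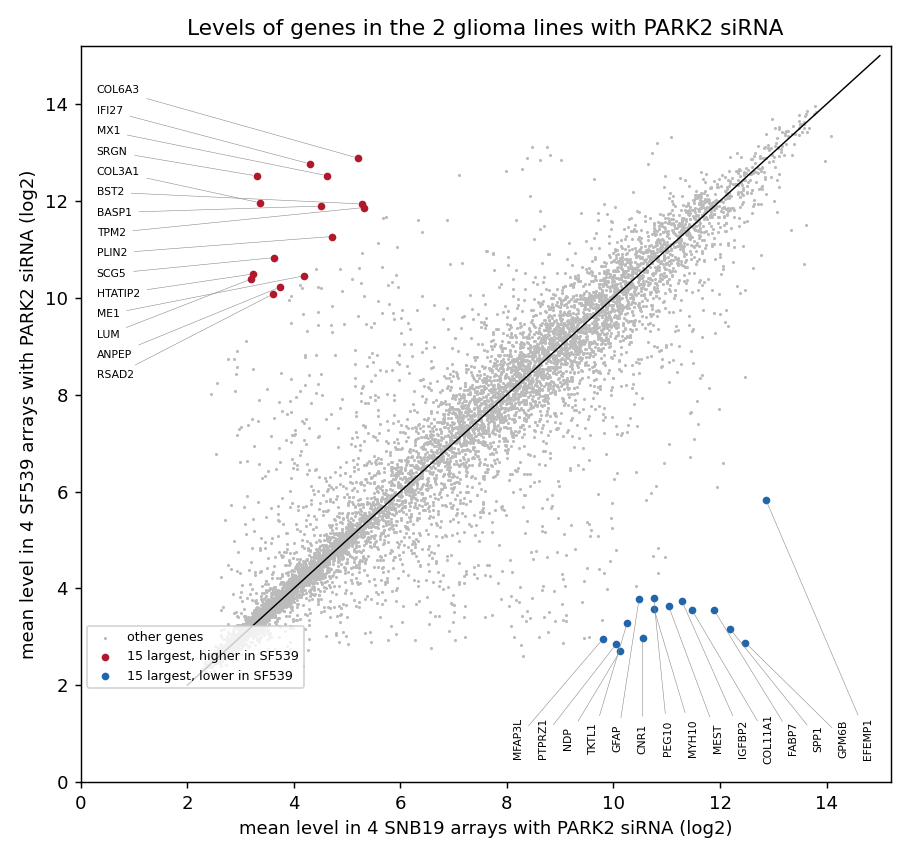
Mean log2 level of 8523 genes over the 4 SNB19 arrays (horizontal axis) and the 4 SF539 arrays (vertical axis) with PARK2 siRNA, with the line of equal levels. Some genes that were tested are not reported here and are left out. The 15 largest differences in each direction lie away from the line, with COL3A1 at 11.96 in SF539 and 3.36 in SNB19 and GPM6B at 2.88 and 12.47.

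The genes that were highest in SF539 relative to SNB19 encode connective tissue matrix proteins, a contractile filament protein, secretory granule proteins and antiviral proteins. SRGN, a proteoglycan stored in secretory granules, stood at 12.56 and 12.28 with siRNA1 and 12.68 and 12.55 with siRNA2 in SF539 and at 3.41 and 3.27 with siRNA1 and 3.26 and 3.26 with siRNA2 in SNB19. The groups lay far apart, SNB19 was under the lower quartile of every array, and the difference was 9.22 ± 0.11 (SE, limma adjusted p = 3.62e-12). COL3A1, the chain of fibrillar collagen III, stood at 10.85 and 11.21 with siRNA1 and 12.39 and 13.40 with siRNA2 in SF539 and at 3.68 and 2.99 with siRNA1 and 3.26 and 3.51 with siRNA2 in SNB19. Within SF539 both siRNA2 arrays were higher than both siRNA1 arrays and no SNB19 array came near them, with a difference of 8.60 ± 0.22 (SE, limma adjusted p = 2.77e-10). COL6A3, a collagen VI chain of the pericellular matrix, stood at 12.64 and 12.60 with siRNA1 and 13.00 and 13.30 with siRNA2 in SF539 and 4.24 and 5.09 with siRNA1 and 5.73 and 5.75 with siRNA2 in SNB19, a difference of 7.68 ± 0.15 (SE, limma adjusted p = 6.22e-11). LUM, the collagen-binding proteoglycan lumican, stood at 9.43 and 9.44 with siRNA1 and 10.84 and 11.84 with siRNA2 in SF539 and at 2.14 and 2.55 with siRNA1 and 4.25 and 3.86 with siRNA2 in SNB19, and was higher with siRNA2 than with siRNA1 in both lines. Its difference was 7.19 ± 0.20 (SE, limma adjusted p = 5.45e-10).

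The other large differences in this direction covered several functions. BASP1, a membrane protein of growth cones, differed by 7.39, HTATIP2 by 7.25, ANPEP, a surface aminopeptidase, by 6.48, and ME1, the cytosolic malic enzyme, by 6.26. SCG5, a chaperone of the regulated secretory pathway, differed by 7.20, and 1 of its 4 SF539 arrays stood at 12.28, with the other 3 between 10.31 and 10.39. TPM2, a tropomyosin of contractile filaments, differed by 6.55, and PLIN2, a coat protein of lipid droplets, by 6.55. HTATIP2, TPM2, PLIN2 and ME1 differed less averaged over their probe sets, by 4.52, 4.21, 3.19 and 4.28, and the probe sets of PLIN2 differed in sign. COL3A1 differed by 5.90 averaged over its probe sets, the lowest of which differed by 0.18. IFI27, MX1, BST2 and RSAD2 complete the 15 and belong to the interferon-stimulated genes.

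The genes lowest in SF539 relative to SNB19 included glial genes, imprinted genes and secreted or matrix proteins. GPM6B, a membrane proteolipid of glia and neurons, stood at 2.88 and 2.79 with siRNA1 and 2.86 and 3.01 with siRNA2 in SF539 and at 12.31 and 12.27 with siRNA1 and 12.70 and 12.61 with siRNA2 in SNB19, a difference of -9.59 ± 0.11 (SE, limma adjusted p = 2.81e-12). All 4 SF539 arrays were under the lower quartile. SPP1, the secreted phosphoprotein osteopontin, stood at 3.34 and 2.96 with siRNA1 and 3.22 and 3.16 with siRNA2 in SF539 and 11.98 and 11.97 with siRNA1 and 12.41 and 12.39 with siRNA2 in SNB19, a difference of -9.02 ± 0.08 (SE, limma adjusted p = 9.45e-13). Here too the 4 SF539 arrays lay under the lower quartile.

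The further members were COL11A1, a minor fibrillar collagen (-7.92), CNR1, the cannabinoid receptor of neurons (-7.57), IGFBP2, an insulin-like growth factor binding protein (-7.54), and NDP, the Frizzled ligand norrin (-7.42). MEST and PEG10, both imprinted genes, differed by -7.40 and -6.96, MYH10, a nonmuscle myosin heavy chain, by -7.19, TKTL1, a transketolase relative, by -6.97, and MFAP3L by -6.84. Averaged over their probe sets CNR1 and MFAP3L differed by -3.10 and -2.92, and MYH10, PEG10 and TKTL1 by -5.90, -5.42 and -5.13. EFEMP1, the matrix glycoprotein fibulin-3, stood at 5.12 and 4.81 with siRNA1 and 4.68 and 8.68 with siRNA2 in SF539 and at 12.96 and 13.00 with siRNA1 and 12.67 and 12.83 with siRNA2 in SNB19. The groups did not overlap, but 1 SF539 array lay well above the other 3, and the difference was -7.04 ± 0.65 (SE, limma adjusted p = 6.35e-06). Without that array the difference was -8.04. FABP7, PTPRZ1 and GFAP complete the list of 15 and are glial genes.

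**Figure D2:**
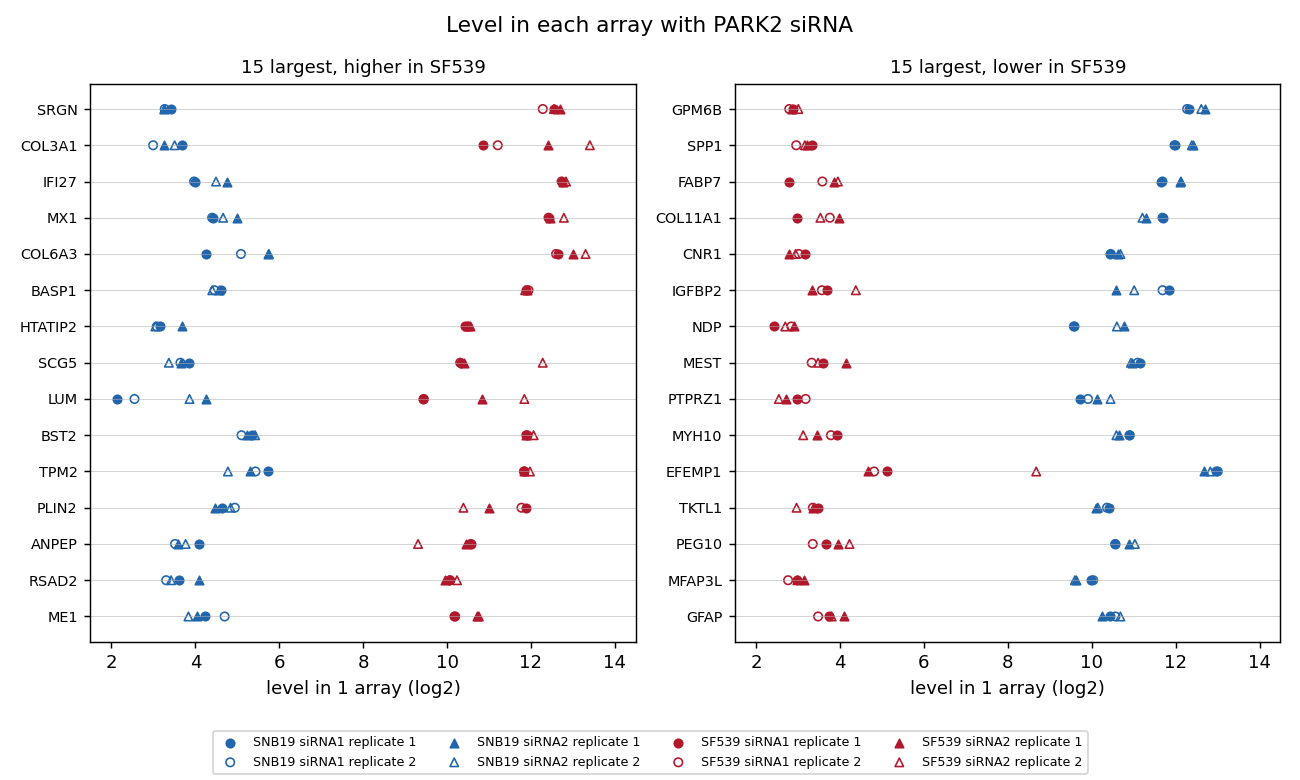
Log2 level in each of the 8 arrays with PARK2 siRNA (horizontal axis) for the 15 genes with the largest differences higher in SF539 (left) and the 15 lower in SF539 (right), blue for SNB19 and red for SF539, circles for siRNA1 and triangles for siRNA2, filled for replicate 1 and open for replicate 2. The lines do not overlap in any of the 30 genes, and the open red triangle, SF539 siRNA2 replicate 2, lies off its group for EFEMP1 (8.68), SCG5 (12.28) and ANPEP (9.31).

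Many astrocyte and glial genes were low in SF539. Of 22 measured markers 13 were lower in SF539 and 0 higher, 12 of the 13 by at least 4-fold, where 26.4% of all genes tested were lower. Without SF539 siRNA2 replicate 2 the counts were 13 lower and 1 higher, GLUL with a difference of 0.21. The median difference of the list was -2.49, against 0.02 for all genes. GFAP stood at 3.75 and 3.48 with siRNA1 and 4.10 and 3.80 with siRNA2 in SF539 and at 10.43 and 10.57 with siRNA1 and 10.24 and 10.68 with siRNA2 in SNB19, a difference of -6.70 ± 0.13 (SE, limma adjusted p = 5.29e-11). Its other probe set differed by 0.20, and the mean of both by -3.25. FABP7 stood at 2.79 and 3.58 with siRNA1 and 3.87 and 3.95 with siRNA2 in SF539 and 11.65 and 11.69 with siRNA1 and 12.10 and 12.13 with siRNA2 in SNB19, a difference of -8.35 ± 0.14 (SE, limma adjusted p = 2.03e-11), or -5.43 averaged over its probe sets. PTPRZ1, a receptor phosphatase of glial precursors, differed by -7.20, CRYAB, a small heat shock protein, by -6.52, SCRG1 by -5.26, the matricellular gene SPARCL1 by -5.13 and the endothelin receptor gene EDNRB by -4.86. The calcium-binding S100B differed by -4.85, and the factors SOX2 and SOX9, which hold neural precursors and glia in their fate, by -4.43 (-2.11 averaged over its probe sets) and -4.42. CLU, the glutamate transporter gene SLC1A3 and the gap junction gene GJA1 showed smaller differences of -2.75, -2.24 and -1.30.

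The label of both lines was set against these markers. In SF539 the astrocyte markers GFAP (3.78), S100B (3.53), FABP7 (3.55) and AQP4 (3.24) had means under the lower quartile of the arrays, while GJA1 (11.78) and the glutamine synthetase gene GLUL (11.29) were bright. In SNB19 GFAP (10.48), S100B (8.38) and FABP7 (11.89) were well above it and AQP4 (3.29) was not. GLUL, ALDH1L1, NCAN, MBP, SOX10, AQP4, OLIG2, SLC1A2 and PROM1 did not pass, and OLIG2, a factor of oligodendrocyte precursors and many gliomas, was dim in both lines (means 3.47 and 3.51). The mean level of the 22 markers was 4.92 to 4.99 in the SF539 arrays and 7.78 to 7.88 in the SNB19 arrays with PARK2 siRNA. It was 4.88 to 4.91 and 6.94 with scramble. In such bulk samples fewer cells of a type and less RNA per cell cannot be told apart.

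Markers of other cell types passed in part. Passing were 25% of leukocyte, 50% of endothelial, 69.2% of epithelial and 25% of melanocyte and Schwann markers. Over all genes tested 54.3% passed, 27.8% higher in SF539 and 26.4% lower, so the leukocyte list and the melanocyte and Schwann list lay under that share. Of 16 leukocyte markers 4 were higher in SF539 and 0 lower (median difference 0.15), ITGB2, a leukocyte integrin chain, differing by 2.08, LAPTM5 by 0.62 (0.35 without SF539 siRNA2 replicate 1), CSF1R by 0.61 and FCER1G by 0.45. The defining leukocyte gene PTPRC had means of 2.96 and 2.84, under the lower quartile, and the mean level of the list was 4.56 to 4.79 in SF539 and 4.36 to 4.45 in SNB19. Of 10 endothelial markers 2 were higher and 3 lower, ENG, a co-receptor for TGF-beta, differing by 4.73 (2.60 averaged over its probe sets) and KDR by -1.69, and CDH5 had means of 3.43 and 3.85 in SF539 and SNB19. CDH5 lost its call in 4 of the 12 fits that leave out 1 array, with limma adjusted p from 0.0642 to 0.0695 in those. Of 13 epithelial markers 3 were higher and 6 lower, among them ELF3 (-2.94), KRT19 (-2.26) and KRT7 (1.43, or 0.77 averaged over its probe sets), with EPCAM at 2.99 and 2.87. Of 8 melanocyte and Schwann markers 0 were higher and 2 lower, TYRP1 (-2.82) and MITF (-0.56).

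Of the 36 gene lists the interferon-stimulated genes had the largest median difference. Of 33 measured members 30 were higher in SF539 and 2 lower, 24 of them higher by at least 4-fold, with a median difference of 4.23, where 27.8% of all genes tested were higher. With scramble siRNA the median difference of the same list was 0.01, but 12 members were higher in SF539 and 9 lower. Over all genes tested 24.6% were higher and 24.7% lower with scramble. The counts of 30 and 2 were the same with quantile normalization, with median centring and without either SF539 siRNA2 array. The promoters of 3 members are shown because IFI27 and BST2 carry the difference and IFIT1 goes against it. Each run covers 250 bases before to 50 after the start of the gene (RefSeq, GRCh38.p14), written 5′ to 3′ on the strand of the gene, and capitals mark matches to GAAANNGAAA on either strand, which reads TTTCNNTTTC where it lies on the other strand, a simple form of the element bound by interferon-activated factors.
IFI27, chr14:94110486-94110785, plus strand: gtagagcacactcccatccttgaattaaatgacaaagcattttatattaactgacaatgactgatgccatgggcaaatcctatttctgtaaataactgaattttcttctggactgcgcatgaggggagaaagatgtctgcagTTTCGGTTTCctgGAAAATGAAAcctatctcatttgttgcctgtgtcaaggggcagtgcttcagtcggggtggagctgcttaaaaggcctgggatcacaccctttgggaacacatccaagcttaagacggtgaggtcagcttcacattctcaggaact
BST2, chr19:17405581-17405880, minus strand: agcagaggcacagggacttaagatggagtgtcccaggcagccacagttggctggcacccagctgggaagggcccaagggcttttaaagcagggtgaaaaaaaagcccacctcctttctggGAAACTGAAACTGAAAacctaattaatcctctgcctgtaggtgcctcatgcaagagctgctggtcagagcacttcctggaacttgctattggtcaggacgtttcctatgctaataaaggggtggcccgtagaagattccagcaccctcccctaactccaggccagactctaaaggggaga
IFIT1, chr10:89392373-89392672, plus strand: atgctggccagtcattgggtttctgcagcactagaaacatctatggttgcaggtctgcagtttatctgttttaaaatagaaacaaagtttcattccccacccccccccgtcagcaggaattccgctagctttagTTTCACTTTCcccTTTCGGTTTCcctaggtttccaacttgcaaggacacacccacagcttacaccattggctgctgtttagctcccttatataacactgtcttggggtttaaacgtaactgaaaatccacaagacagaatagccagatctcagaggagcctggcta
Counted from the gene start, the matches begin at -108 and -95 in IFI27, at -130 and -124 in BST2, where they overlap, and at -116 and -103 in IFIT1. The letters were found in 17 of 26 promoters of measured interferon-stimulated genes (65.4%), in 3.65% of all 27305 promoters in the table and in 3.23% of the 6817 promoters of genes tested. They were found in 2 of 13 promoters of glial genes (15.4%). A match describes the letters only.

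IFI27, MX1 and BST2 were bright in every SF539 array and dim in the SNB19 arrays with PARK2 siRNA. IFI27, a small mitochondrial protein, stood at 12.74 and 12.73 with siRNA1 and 12.76 and 12.84 with siRNA2 in SF539 and at 3.99 and 3.97 with siRNA1 and 4.75 and 4.49 with siRNA2 in SNB19, a difference of 8.47 ± 0.07 (SE, limma adjusted p = 8.75e-13). With scramble IFI27 stood at 12.83 and 12.94 in SF539 and at 12.94 and 12.98 in SNB19, so the difference there did not pass (-0.08, limma adjusted p = 0.55), and it is the SNB19 arrays with PARK2 siRNA that are low. MX1, a dynamin-like GTPase that blocks viruses, stood at 12.44 and 12.42 with siRNA1 and 12.45 and 12.78 with siRNA2 in SF539 and 4.42 and 4.40 with siRNA1 and 5.00 and 4.66 with siRNA2 in SNB19, a difference of 7.90 ± 0.10 (SE, limma adjusted p = 3.32e-12). With scramble MX1 stood at 12.63 and 12.50 in SF539 and at 11.0 and 10.89 in SNB19, a difference of 1.62. BST2, the tetherin that holds budding virus at the membrane, stood at 11.91 and 11.89 with siRNA1 and 11.89 and 12.06 with siRNA2 in SF539 and 5.34 and 5.10 with siRNA1 and 5.22 and 5.42 with siRNA2 in SNB19, a difference of 6.67 ± 0.08 (SE, limma adjusted p = 2.81e-12). With scramble BST2 stood at 12.07 and 12.16 in SF539 and at 11.81 and 11.78 in SNB19, a difference of 0.32. All 3 genes thus had their low values in the same 4 arrays.

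RSAD2, the antiviral enzyme viperin, differed by 6.47 with PARK2 siRNA and 1.5 with scramble, and XAF1, an apoptosis-related gene, by 6.15 and 1.20. The remaining members higher in SF539 ranged from ADAR at 0.46 to OAS1, a sensor of double-stranded RNA, at 6.06, and included MX2 (5.69), ISG15 (4.50) and IFITM1 (5.44), which has near-identical relatives and is uncertain. GBP2 did not pass (means 8.30 and 8.29). The mean level of the 33 genes was 10.19 to 10.43 in the SF539 arrays and 6.53 to 6.79 in the SNB19 arrays with PARK2 siRNA, and 10.53 to 10.56 and 10.76 to 10.78 with scramble. A test of the difference between these differences passed for all 33, in the positive direction for 32 and in the negative for IRF7, the factor that amplifies interferon production, which differed by 4.58 with PARK2 siRNA and 5.81 with scramble. Over all genes tested 10.8% passed in the positive direction and 8.3% in the negative, and the counts of 32 and 1 held with quantile normalization and with median centring.

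The 2 members lower in SF539 were IFIT1, which binds viral RNA, and IFIT3. IFIT1 stood at 3.01 and 2.70 with siRNA1 and 3.15 and 2.93 with siRNA2 in SF539 and at 6.55 and 6.53 with siRNA1 and 7.67 and 7.35 with siRNA2 in SNB19, a difference of -4.08 ± 0.10 (SE, limma adjusted p = 2.49e-10). With scramble it stood at 3.08 and 2.87 in SF539 and at 12.85 and 12.89 in SNB19. IFIT1 was thus under the lower quartile in all 6 SF539 arrays, and in SNB19 it was lower with the PARK2 siRNAs than with scramble. IFIT3 stood at 4.70 and 4.65 with siRNA1 and 4.76 and 4.64 with siRNA2 in SF539 and 5.53 and 5.61 with siRNA1 and 6.02 and 5.69 with siRNA2 in SNB19, a difference of -1.03 ± 0.08 (SE, limma adjusted p = 1.63e-06), and with scramble at 4.62 and 4.55 in SF539 and 11.68 and 11.78 in SNB19.

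**Figure D3:**
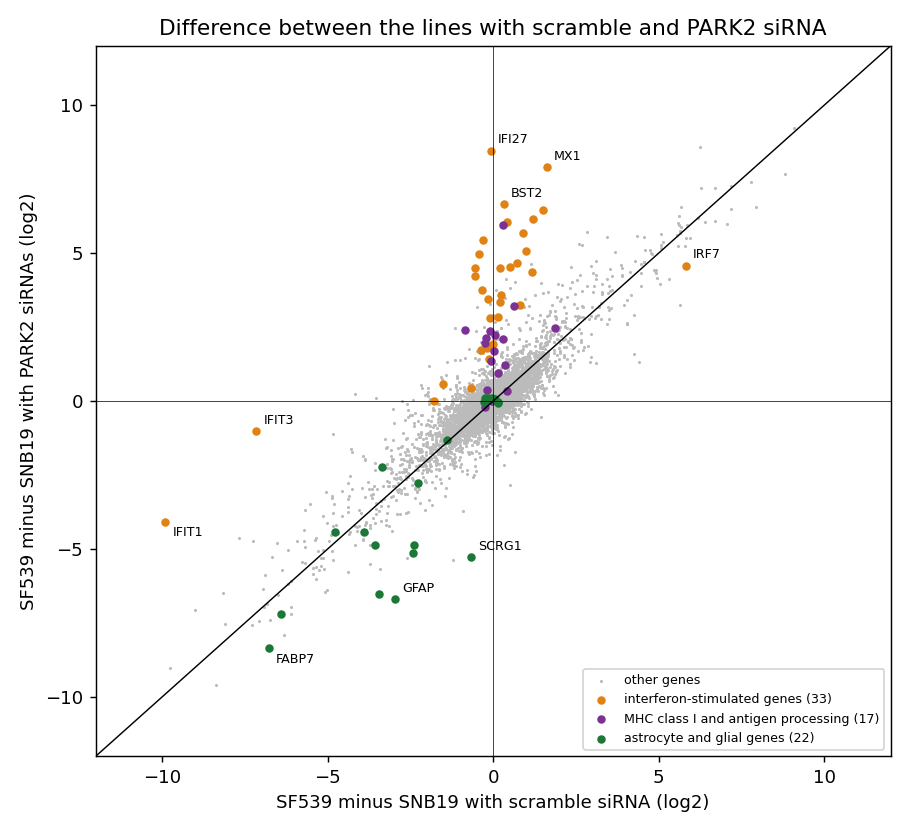
Difference SF539 minus SNB19 (log2) with scramble siRNA (horizontal axis) and with PARK2 siRNAs (vertical axis) for 8523 genes, with the line of equal differences and 3 gene lists in colour. Interferon-stimulated genes other than IRF7 stand above the line, IFI27 (-0.08 and 8.47) near 0 on the horizontal axis. Glial genes such as GFAP (-2.98 and -6.70) stand below it. The axes share no arrays.

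Peptide loading on MHC class I followed the same direction, and 94.1% of its list passed, against 54.3% of all genes tested. Of 17 measured genes 15 were higher in SF539 and 1 lower, the chaperone gene PDIA3 (-0.21), with a median difference of 1.96 and 0.04 with scramble. PDIA3 lost its call in 11 of the 12 fits that leave out 1 array, with limma adjusted p from 0.0523 to 0.115 in those. PSMB9, a subunit of the immunoproteasome, stood at 11.72 and 11.85 with siRNA1 and 11.76 and 11.39 with siRNA2 in SF539 and 5.15 and 5.10 with siRNA1 and 6.55 and 6.15 with siRNA2 in SNB19, and in SNB19 both siRNA2 arrays were above both siRNA1 arrays. Its difference was 5.94 ± 0.10 (SE, limma adjusted p = 2.67e-11), against 0.29 with scramble. The peptide transporter genes TAP2 and TAP1 differed by 3.22 and 2.41 and HLA-B by 2.37, although HLA genes have near-identical relatives and are uncertain. The trimming peptidase gene ERAP1 differed by 2.46, and its 5 probe sets, which differed in sign, by 0.35 on average. TAP2 differed by 1.64 averaged over its probe sets. Set against scramble the line difference was more positive with the PARK2 siRNAs for 13 of the 17 genes and more negative for 0. These counts were the same with quantile normalization and with median centring. In these directions 10.8% and 8.3% of all genes tested passed in the main fit.

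MHC class II genes showed smaller differences, and 38.5% of them passed, under the 54.3% of all genes tested. For interferon sensing and reception the share was 80%. Of 13 measured genes 5 were higher in SF539 and 0 lower, with a median difference of 0.11: CTSS, a lysosomal protease (1.49), HLA-DMB (1.47), the invariant chain gene CD74 (0.67), HLA-DPB1 (0.48) and HLA-DOB (0.25). HLA-DOB lost its call in 7 of the 12 fits that leave out 1 array, with limma adjusted p from 0.0508 to 0.137 in those. Of 20 genes of interferon sensing and reception 14 were higher and 2 lower, the factor gene STAT3 (-0.79) and the kinase gene TYK2 (-0.38). These counts were 13 and 4 without SF539 siRNA2 replicate 1 and 14 and 4 with each array centred on its median. Besides IRF7, which like IRF9 and IFIH1 is in the interferon-stimulated list too, the genes with the largest differences were TLR3, an endosomal sensor of double-stranded RNA (3.29, -0.10 with scramble), IRF9, the partner of the STAT factors (2.85), IRF1 (2.46) and IFIH1, a cytosolic sensor (1.79).

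IFIT1 and IFIT3 lie in a run of neighbouring genes on chromosome 10 that were dim in SF539. In RefSeq order the 9 measured genes from MINPP1 to IFIT1 (MINPP1, PAPSS2, LIPF, ACTA2, FAS, CH25H, LIPA, IFIT3 and IFIT1) stood between 2.70 and 4.76 in the SF539 arrays with PARK2 siRNA, and no scramble array of SF539 exceeded 4.62 in any of them. In SNB19 7 of the 9 were higher and passed the test. MINPP1, an inositol phosphatase, differed by -6.56 ± 0.15 (SE, limma adjusted p = 1.27e-10), LIPA, the lysosomal acid lipase, by -5.88 ± 0.08 (SE, limma adjusted p = 6.93e-12), and PAPSS2, which makes the sulfate donor, by -3.79 (-2.01 averaged over its probe sets). FAS, a death receptor, differed by -3.49 and ACTA2, smooth muscle actin, by -3.08, or -1.46 averaged over its probe sets, which differed in sign. LIPF (means 3.89 and 3.85) and CH25H (3.14 and 3.46) did not pass and were dim in both lines. On either side of the run GLUD1 (means 9.92 and 9.88) and IFIT5 (10.44 and 8.52) were bright in both lines. The run was chosen after its values were seen, and copy number is not analysed here.

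**Figure D4:**
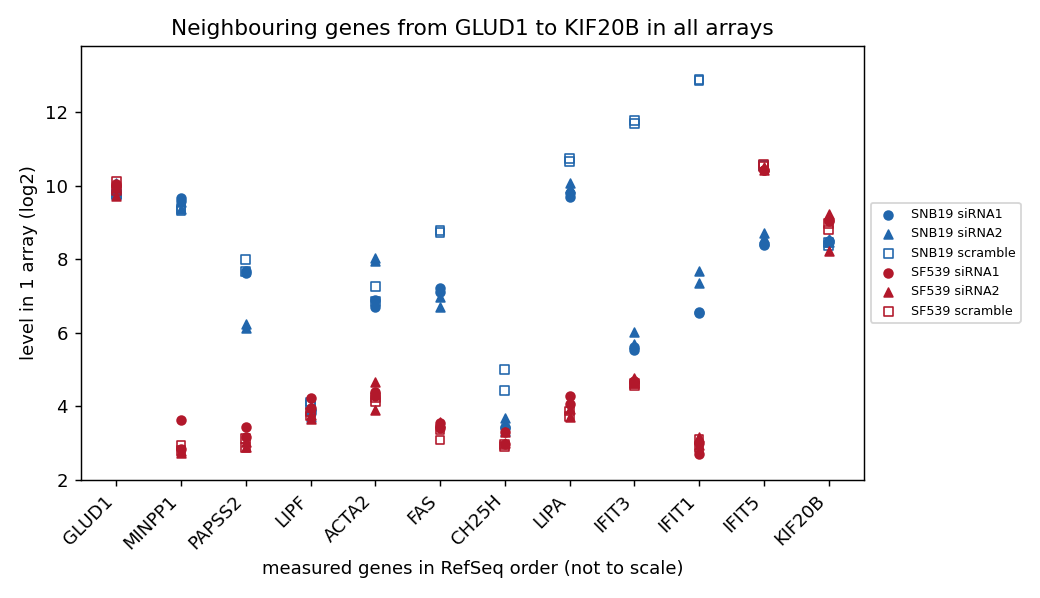
Log2 level in each of the 12 arrays (vertical axis) of 12 measured neighbouring genes in RefSeq order, not to scale, with SNB19 in blue and SF539 in red and scramble arrays as open squares. From MINPP1 to IFIT1 every SF539 array lies at or under 4.76, while GLUD1, IFIT5 and KIF20B lie above 8.2 in SF539.

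Collagen genes lay on both sides, and 73.7% of them passed, against 54.3% of all genes tested. Of 19 measured genes 8 were higher in SF539 and 6 lower (median difference 0.22), against 8 and 9 without SF539 siRNA2 replicate 2 (median -0.03) and 11 and 6 without replicate 1 (median 0.65). With scramble 6 were higher and 7 lower (median -0.40), against 24.6% and 24.7% of all genes tested. With the PARK2 siRNAs COL3A1, COL6A3 and COL1A1 (4.57, or 2.65 averaged over its probe sets) were higher in SF539, as were COL15A1 (2.71) and COL16A1 (2.40). COL11A1, the basement membrane chain gene COL4A5 (-5.70), the cartilage collagen gene COL9A3 (-4.85) and COL18A1 (-2.70) were lower. COL1A2, which pairs with COL1A1 in collagen I, differed by -0.72 (means 12.14 and 12.86). COL1A2 lost its call in 5 of the 12 fits that leave out 1 array, with limma adjusted p from 0.0582 to 0.0806 in those, and its smallest difference over the 12 was -0.36.

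Of 42 matrix proteins and matrix enzymes 21 were higher in SF539 and 15 lower (median difference 0.31), against 20 and 16 without SF539 siRNA2 replicate 2. Besides LUM, TIMP3, an inhibitor of matrix proteases, stood at 10.76 and 10.83 with siRNA1 and 12.07 and 12.78 with siRNA2 in SF539 and 7.63 and 7.51 with siRNA1 and 6.07 and 6.31 with siRNA2 in SNB19, a difference of 4.73 ± 0.14 (SE, limma adjusted p = 9.21e-10). PLAU, the urokinase that activates plasminogen, differed by 4.15. Besides EFEMP1, the calcification inhibitor gene MGP (-5.61), the protease gene MMP7 (-5.30) and tenascin C, TNC (-4.29, or -2.86 averaged over its probe sets), a matrix glycoprotein of gliomas, were lower in SF539. Of 22 mesenchymal and contractile genes 9 were higher and 8 lower (median 0.05), against 9 and 10 without SF539 siRNA2 replicate 2 (median -0.11). TPM2 and the myosin light chain gene MYL9 (3.90) were higher and ACTA2 and the cadherin gene CDH2 (-2.32) lower. CHI3L1, a secreted glycoprotein, was higher by 2.77, or 1.57 without SF539 siRNA2 replicate 2, and by 1.86 averaged over its probe sets. Vimentin, VIM, did not pass (means 13.50 and 13.57). In the main fit 85.7% of the matrix list and 77.3% of the mesenchymal and contractile list passed, against 54.3% of all genes tested.

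Adhesion receptors differed in both directions. Passing were 84.2% of integrin genes and 77.8% of cadherins and adhesion molecules, against 54.3% of all genes tested. Of 19 integrin genes 10 were higher in SF539 and 6 lower (median 0.27): ITGB4, which anchors cells to laminin, differed by -4.11 (-1.36 averaged over its probe sets), ITGB8 by -3.24, ITGBL1 by 2.83 and the fibronectin receptor chain gene ITGA5 by 2.36. Of 36 cadherins and adhesion molecules 10 were higher and 18 lower (median -0.29). THY1, a surface glycoprotein of fibroblasts and neurons, stood at 4.43 and 4.87 with siRNA1 and 4.92 and 5.15 with siRNA2 in SF539 and 10.72 and 10.78 with siRNA1 and 10.83 and 11.03 with siRNA2 in SNB19, a difference of -6.00 ± 0.10 (SE, limma adjusted p = 2.37e-11). PCDH17 (-5.32) and the neuronal adhesion gene NRCAM (-5.26, or -3.19 averaged over its probe sets) were lower too, and the glypican gene GPC1 differed by -2.87. NT5E, the ecto-enzyme CD73 that makes adenosine, was higher in SF539 by 5.27 ± 0.11 (SE, limma adjusted p = 6.5e-11).

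More secreted inflammatory factors were higher than lower in SF539. Of 31 cytokines and chemokines 17 were higher and 3 lower (median 1.03), and 11 did not pass. Over all genes tested 27.8% were higher and 26.4% lower. The median was 1.32 without SF539 siRNA2 replicate 1 and 0.77 without replicate 2. With scramble it was 0.28, with 12 members higher and 5 lower, against 24.6% and 24.7% of all genes tested. The chemokine genes CXCL8 and CXCL2, which draw neutrophils, differed by 4.34 and 3.95, the lymphocyte growth factor gene IL7 by 4.25 and IL6 by 3.65. IL18, a cytokine of the inflammasome, went the other way: it stood at 3.17 and 2.63 with siRNA1 and 3.01 and 2.67 with siRNA2 in SF539 and 8.78 and 8.81 with siRNA1 and 9.37 and 9.25 with siRNA2 in SNB19, a difference of -6.18 ± 0.17 (SE, limma adjusted p = 4.21e-10). CX3CL1 (-1.74) and CCL2 (-1.72) were the other 2 that were lower.

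Of 27 growth factor genes 12 were higher in SF539 and 7 lower (median 0.13). Passing were 70.4% of these and 64.9% of the receptor tyrosine kinase genes, against 54.3% of all genes tested. TGFA, a ligand of the EGF receptor, stood at 3.29 and 2.88 with siRNA1 and 2.96 and 2.79 with siRNA2 in SF539 and 9.60 and 9.60 with siRNA1 and 9.24 and 9.38 with siRNA2 in SNB19, a difference of -6.47 ± 0.10 (SE, limma adjusted p = 1.38e-11), or -2.72 averaged over its probe sets. PTN, whose probe sets differed in sign, and EGF itself were lower (-2.37 and -2.26), while the lymphatic factor gene VEGFC and the neurotrophin gene BDNF were higher (3.83 and 3.37, the latter -0.16 with scramble). Of 37 receptor tyrosine kinase genes 8 were higher and 16 lower (median -0.06). The platelet-derived growth factor receptors lay on opposite sides, PDGFRB at 3.03 and PDGFRA at -2.78 (-1.30 averaged over its probe sets). FGFR3 (-3.18, or -1.69 averaged over its probe sets), EPHA3 (-2.33, or -1.67) and EPHB3 (-2.19, or -1.60) were lower.

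Developmental pathways were split. Passing were 76.9% of Wnt, 80% of TGF-beta and BMP and 55.6% of Notch pathway genes, against 54.3% of all genes tested. Of 26 Wnt pathway genes 9 were higher in SF539 and 11 lower (median 0.05), or 9 and 9 without SF539 siRNA2 replicate 2: the secreted antagonist genes SFRP1 and DKK1 were lower by differences of -4.51 and -3.66, and the receptor gene FZD2 (2.40), the ligand gene WNT5A (1.88) and CCN4 (3.57, or 1.99 averaged over its probe sets) were higher. Of 35 TGF-beta and BMP pathway genes 15 were higher and 13 lower (median -0.11), with ID4, an inhibitor of differentiation, at -4.36, the co-receptor gene TGFBR3 at 3.94 and the inhibitory SMAD7 at 2.75. Of 9 Notch pathway genes 1 was higher and 4 lower, the ligand gene JAG1 by a difference of -3.81 (-2.85 averaged over its probe sets). The 1 higher gene, the glycosyltransferase gene LFNG (0.35), lost its call in 6 of the 12 fits that leave out 1 array, with limma adjusted p from 0.0624 to 0.13 in those.

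Of 33 developmental transcription factor genes other than HOX genes 12 were higher in SF539 and 15 lower (median -0.14). Of these 81.8% passed and of HOX genes 63.2%, against 54.3% of all genes tested. WT1, a factor of mesoderm, stood at 8.76 and 8.2 with siRNA1 and 8.83 and 8.47 with siRNA2 in SF539 and 2.91 and 2.96 with siRNA1 and 2.99 and 2.89 with siRNA2 in SNB19, a difference of 5.63 ± 0.12 (SE, limma adjusted p = 9.95e-11), or 3.07 averaged over its probe sets. The forkhead genes FOXD1 and FOXF1 were higher too (5.25 and 3.64). POU3F2, a factor of neural precursors, was lower by a difference of -4.22 ± 0.22 (SE, limma adjusted p = 8.15e-08), and SALL1 differed by -3.15. Of 19 HOX genes 6 were higher and 6 lower (median 0.01), HOXB2 by 2.89 and HOXA2 by 1.68. HOX genes have near-identical relatives and are uncertain.

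Of 18 neuronal genes 3 were higher in SF539 and 8 lower (median -0.08). Passing were 61.1% of these and 36.8% of cancer-testis genes, against 54.3% of all genes tested. Besides SCG5, the granin gene SCG2 was higher by 3.77, with 0.08 in the scramble comparison. UCHL1, a neuronal ubiquitin hydrolase, was lower by a difference of -4.10, CHGB, another granin, by -2.67 and the synaptic vesicle gene SYT1 by -2.30. Of 19 cancer-testis genes, normally kept to germ cells, 2 were higher and 5 lower (median 0.04), TKTL1 and MAGEA12 (-3.24) having the largest differences, and the MAGE genes have near-identical relatives and are uncertain.

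Some brakes of the G1/S transition differed between the lines. Of 23 regulators 8 were higher in SF539 and 9 lower (median 0.08). In all 73.9% of them passed, against 54.3% of all genes tested. CDKN2A, whose products p16 and ARF restrain CDK4/6 and MDM2, stood at 10.10 and 10.13 with siRNA1 and 10.29 and 10.36 with siRNA2 in SF539 and at 4.30 and 4.58 with siRNA1 and 4.23 and 4.72 with siRNA2 in SNB19, a difference of 5.76 ± 0.13 (SE, limma adjusted p = 1.62e-10). Averaged over its 3 probe sets CDKN2A differed by 4.33, and they ranged from 0.43 to 6.81. CDKN2B, which also restrains CDK4/6, was under the lower quartile in both lines (means 3.22 and 2.92). RB1, the target of the kinases that CDKN2A restrains, stood at 6.34 and 6.18 with siRNA1 and 6.48 and 6.61 with siRNA2 in SF539 and 10.27 and 10.48 with siRNA1 and 10.43 and 10.51 with siRNA2 in SNB19, a difference of -4.02 ± 0.10 (SE, limma adjusted p = 2.77e-10), or -2.33 averaged over its probe sets. The groups of RB1 lay apart in the opposite sense to CDKN2A. The RB1 relative RBL2 (-1.80) and CDKN1A (-1.14) were lower and CDKN1C (2.49) higher. Of 11 measured genes among p53 and its targets 3 were higher and 5 lower (median 0.02), FAS by the largest difference. Of this list 72.7% passed.

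Counts of proliferation genes moved with the SF539 siRNA2 arrays. In the main fit 50% of mitosis genes and 56.7% of DNA replication genes passed, near the 54.3% of all genes tested. Of 28 mitosis genes 10 were higher in SF539 and 4 lower (median 0.23), against 18 and 4 without SF539 siRNA2 replicate 2 and 9 and 13 without replicate 1. PLK1 and TPX2, of the mitotic spindle, were higher by 1.06 and 0.96. Of 30 DNA replication genes 9 were higher and 8 lower (median 0.04), against 13 and 8 without replicate 2 and 9 and 15 without replicate 1. PRIM1, the primase subunit, was higher by 1.78, CDT1, a licensing factor, by 1.09, and RFC2 lower by a difference of -1.0. With scramble 18 replication genes were higher in SF539 and 4 lower (median 0.48), and 8 mitosis genes higher and 4 lower (median 0.25). The shares of all genes tested were 24.6% and 24.7%. For 8 replication genes the difference was more negative with the PARK2 siRNAs and for 0 more positive, against 8.3% and 10.8% of all genes tested.

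Genes of metabolism and low oxygen differed in both directions. Of 30 hypoxia-induced and glycolysis genes 11 were higher in SF539 and 11 lower (median -0.06). In all 73.3% of them passed, against 54.3% of all genes tested. LDHA, the lactate dehydrogenase chain of muscle and tumours, stood at 13.08 and 13.02 with siRNA1 and 13.20 and 13.14 with siRNA2 in SF539 and 8.68 and 8.64 with siRNA1 and 8.82 and 8.84 with siRNA2 in SNB19, a difference of 4.37 ± 0.05 (SE, limma adjusted p = 3.62e-12), against 4.15 with scramble. STC2, ADM and VEGFA, 3 secreted products, were higher by 5.71, 4.63 and 1.83, and differed by 2.85, 1.15 and 0.41 with scramble. The difference was more positive with the PARK2 siRNAs than with scramble for 18 of the 30 and more negative for 0, against 10.8% and 8.3% of all genes tested. With each array centred on its median these counts were 13 and 1. With scramble 6 of the 30 were higher in SF539 and 21 lower (median -0.53), against 24.6% and 24.7% of all genes tested.

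Of 22 cholesterol and fatty acid synthesis genes 6 were higher in SF539 and 10 lower (median -0.10). The desaturase gene SCD and the regulator gene SREBF1 were lower by differences of -2.09 and -1.62, and IDI1 and LSS differed by 1.07 and -1.05. Of 18 NRF2 targets and aldo-keto reductases 5 were higher and 10 lower (median -0.61). ME1 and the haem oxygenase gene HMOX1 (3.57) were higher, and AKR1C3 (-3.68), which has near-identical relatives and is uncertain, and AKR1B10 (-3.56) were lower. Of 26 genes of drug metabolism, transport and repair 6 were higher and 12 lower (median -0.18), or 6 and 14 without SF539 siRNA2 replicate 2, CYP1B1, an oestrogen and carcinogen hydroxylase, by 5.10 ± 0.12 (SE, limma adjusted p = 1.46e-10), and the glutathione transferase gene GSTM3 by a difference of -4.70. CYP1B1 differed by 3.83 averaged over its probe sets, which ranged from 0.12 to 5.19. UGCG, which makes glucosylceramide, differed by 2.72. Of 7 metallothioneins 5 were higher and 1 lower (median 0.68), or 5 and 2 and 5 and 0 without SF539 siRNA2 replicates 1 and 2. MT1E was higher by 1.54, and these genes have near-identical relatives and are uncertain. In the main fit 72.7% of the cholesterol and fatty acid list and 83.3% of the NRF2 and aldo-keto reductase list passed. The shares were 69.2% for drug metabolism, transport and repair and 85.7% for metallothioneins, against 54.3% of all genes tested.

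Around parkin itself, of 21 mitophagy genes 10 were higher in SF539 and 3 lower (median 0.09), or 10 and 5 without SF539 siRNA2 replicate 1, where 27.8% of all genes were higher. The autophagy receptor genes SQSTM1 and OPTN were higher by 1.91 and 1.58, CALCOCO2, another receptor, by 0.88 and the fusion GTPase gene MFN1 by 0.80, while the import receptor gene TOMM20 was lower by a difference of -0.78. PINK1, the kinase that activates parkin, did not pass (means 8.43 and 8.41). In the main fit 61.9% of mitophagy genes passed, against 54.3% of all genes tested. Oxidative phosphorylation subunits and ribosomal protein genes lay under that share, at 48.8% and 43.2%. Of 41 oxidative phosphorylation subunits 10 were higher and 10 lower (median -0.01), against 16 and 10 without SF539 siRNA2 replicate 2 and 9 and 15 without replicate 1, with NDUFA7 at -0.69 and NDUFA9 at 0.58. Of 37 ribosomal protein genes 14 were higher and 2 lower (median 0.09), or 14 and 4 without SF539 siRNA2 replicate 1 and 18 and 2 without replicate 2, with RPL8 at 0.51.

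**Figure D5:**
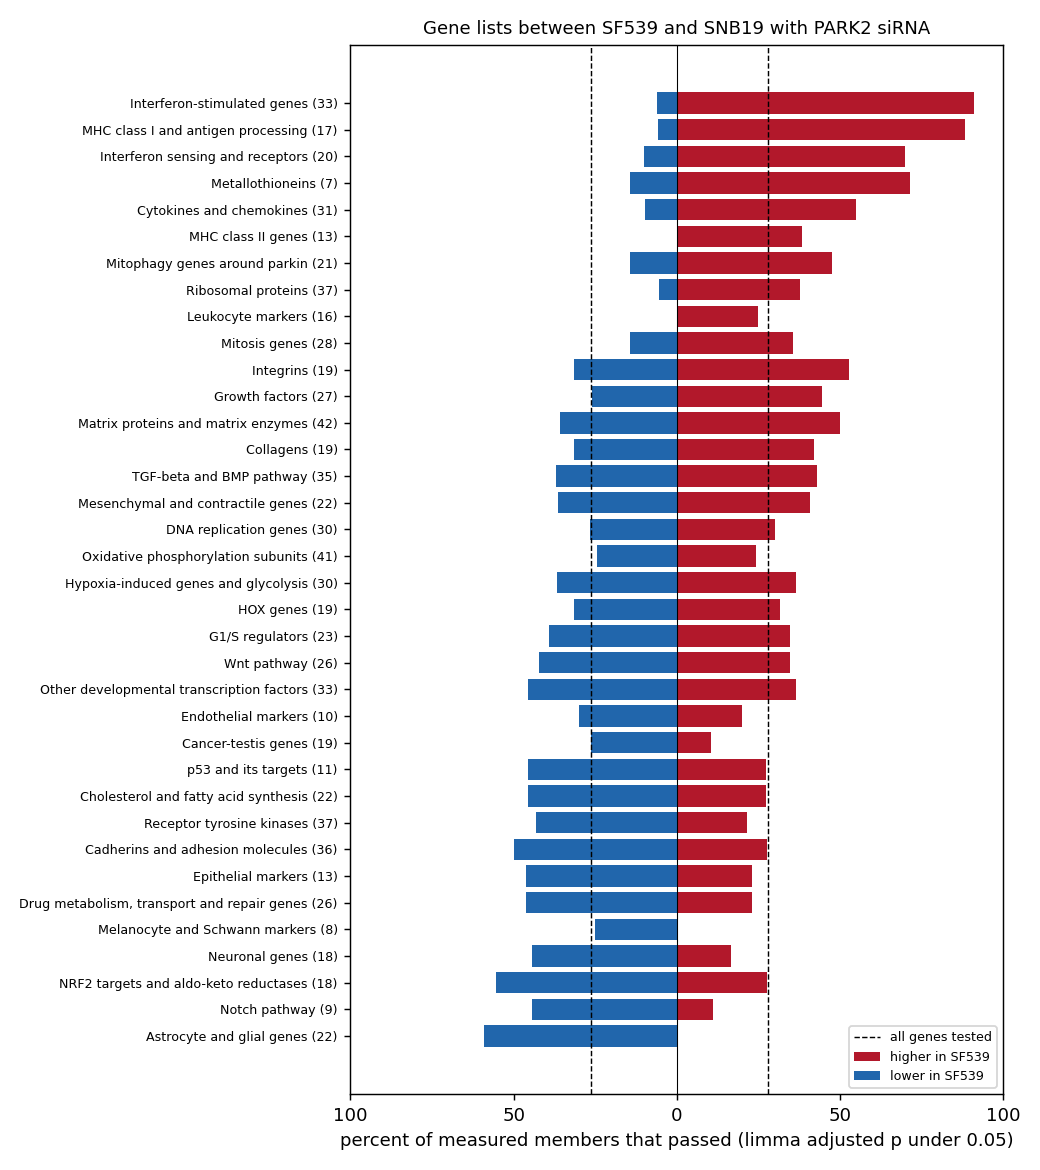
Percent of the measured members (number in brackets) of 36 gene lists that were higher (red) or lower (blue) in SF539 than in SNB19 with PARK2 siRNA at a limma adjusted p under 0.05, with dashed lines at the shares of all genes tested, 27.8% and 26.4%. The interferon and MHC class I lists lie mostly on the higher side, the glial list has 0 higher, and most others have members on both sides.

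The difference between the lines was then taken within each siRNA, which share no array. With siRNA1 4091 genes passed (47.9% of those tested), 2150 higher in SF539 (25.2%) and 1941 lower (22.7%). With siRNA2 3795 passed (44.4%), 1905 higher (22.3%) and 1890 lower (22.1%). In the same direction 2992 genes passed with each siRNA, 73.1% of the siRNA1 list and 78.8% of the siRNA2 list, and 23 in opposite directions. A test of whether the difference depended on the siRNA passed for 285 genes (3.34%), 179 with a more positive difference with siRNA2 (2.09%) and 106 with a more negative one (1.24%). That count was 2203 without SF539 siRNA2 replicate 1, 408 without replicate 2, between 77 and 121 without any 1 of the SNB19 PARK2 siRNA arrays or SF539 siRNA1 arrays and 181 without either SNB19 scramble array. It was 126 with the 8 arrays alone.

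Among the 5 largest changes in each direction were genes of the matrix and of secreted factors. CEMIP, which breaks down hyaluronan, differed by 1.17 with siRNA1 and 5.74 with siRNA2, a change of 4.57 ± 1.0 (SE, limma adjusted p = 0.0424). CEMIP stood at 6.4 and 6.72 with siRNA1 and 7.94 and 10.89 with siRNA2 in SF539 and 5.45 and 5.34 with siRNA1 and 3.23 and 4.12 with siRNA2 in SNB19, and lost its call in 10 of the 12 fits without 1 array (limma adjusted p from 0.0627 to 0.153). AKR1B10 changed by 3.25, TIMP3 by 3.01, CD180, a surface receptor of immune cells, by 2.98 and the kinase gene DAPK1 by 2.85, or 1.52 averaged over its probe sets. In the other direction PLN, a regulator of the calcium pump, changed by -2.76, the cytokine gene IL11 by -2.70, the collagenase gene MMP1 by -2.62, CXCL8 by -2.31 and CXCL2 by -2.30. IL11 and CXCL2 each lost their call without any 1 of the SNB19 PARK2 siRNA arrays or the SF539 siRNA1 arrays, with limma adjusted p from 0.0539 to 0.0978.

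The same lines with scramble siRNA show how far the differences held without PARK2 siRNA. With scramble 4212 genes passed (49.3% of those tested), 2101 higher in SF539 (24.6%) and 2111 lower (24.7%), or 3182 and 1639 after centring by array medians. Of the 4636 genes that passed with the PARK2 siRNAs 3170 passed in the same direction with scramble, 68.4% of the former and 75.3% of the latter list, and 158 in the opposite direction. Of the 284 genes lower in SF539 by at least 4-fold 281 passed in the same direction with scramble and 230 were again at least 4-fold lower. Of the 267 higher by at least 4-fold 226 passed in the same direction, 148 by at least 4-fold, and 41 did not.

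The test of the difference between these differences passed for 1629 genes, 19.1% of those tested, 920 in the positive direction (more toward SF539 with the PARK2 siRNAs) and 709 in the negative. After centring by array medians the median over genes went from -0.01 to -0.18 and the counts became 578 and 1519, so changes smaller than that shift have no settled direction. The count was 952 and 1071 without SNB19 scramble replicates 1 and 2 and 2686 and 2340 without SF539 siRNA2 replicates 1 and 2. The largest positive changes were those of interferon-stimulated genes, IFI27 at 8.54 ± 0.12 (SE, limma adjusted p = 1.6e-10), BST2 at 6.35, MX1 at 6.28, IFIT3 at 6.12 and IFIT1 at 5.82. The largest negative changes were those of SCRG1 at -4.60 ± 0.22 (SE, limma adjusted p = 5.24e-07), the acute-phase inhibitor gene SERPINA3 at -4.14, GFAP at -3.72 (-1.85 averaged over its probe sets), PODXL at -3.35 and the endothelial cell product ESM1 at -3.07. SCRG1 stood at 9.44 and 9.61 with siRNA1 and 8.08 and 8.0 with siRNA2 in SNB19, at 4.39 and 4.22 in SNB19 with scramble and at 3.86 and 3.30 with siRNA1 and 3.30 and 3.63 with siRNA2 in SF539, so the 4 SNB19 arrays with PARK2 siRNA are the high ones. Of the 22 glial markers 13 were lower in SF539 with scramble, where 24.7% of all genes tested were lower. For 9 the difference was more negative with the PARK2 siRNAs, against 8.3% of all genes tested. That count was again 9 with median centring. No untransfected cells are among the samples used here.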

How the data were processed

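Total RNA of 12 samples was hybridised to Affymetrix arrays, 2 per line and siRNA. The series matrix holds log2 values as the authors deposited them. They were made in Partek, per the submitters' processing notes, and how background was corrected, arrays normalized and probes summarised is not given in the sources used here. Array quantiles differed by at most 0.302 at a rank.

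Of 16376 probe sets 14038 had 1 gene symbol in the platform annotation, 792 several and 1546 none, and 14028 were matched by Entrez ID to RefSeq (GRCh38.p14). Each of 8545 genes was represented by its brightest probe set, and 3361 genes had several. In R 4.3.3, limma 3.58.1 fitted 1 mean per group over the 12 arrays (lmFit) and moderated the errors (eBayes). Residual degrees of freedom were 6 and prior ones 3.65, and p-values were adjusted by Benjamini-Hochberg over all genes. The difference SF539 minus SNB19 was taken with siRNA1, with siRNA2, as their mean (the main comparison), and with scramble, and both differences of these differences were tested. The code was tested on simulated data.

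Named were the 15 largest differences each way that also passed with each siRNA alone, up to 5 members per gene list with the largest differences, listed cell type markers, and the 5 largest each way in the differences of differences. Other genes were named after their values were seen: those of the chromosome 10 run, glial genes beyond the first 5, and examples such as ADAR, COL1A1, TNC, PDIA3 and PINK1. The comparison, its gene lists (some of which share members) and the tests were chosen with earlier results of these data known. Promoters come from the RefSeq table of GRCh38.p14 and figures were drawn with matplotlib 3.10.9. Alternatives were quantile normalization, median centring, dim genes left out, averaged or separate probe sets, a robust prior, array weights, a 1.5-fold minimum, the replicate number as a block, only the arrays compared, and each array left out. Some genes are not reported here.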

Additional observations from a re-analysis of the deposited data

Results flagged for a closer look

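In groups of 4 arrays a test for a value far from the other 3 was made 92 times, for each line in the genes of largest difference. It picked out 9 values. Each group mixes siRNA1 and siRNA2 arrays, and some genes were picked for differences between the siRNAs, so no rate expected by chance is given. All but 1 of the 9 values were in SF539 siRNA2 replicate 2. In that array MX1 stood at 12.78, SCG5 at 12.28, BST2 at 12.06, TPM2 at 11.97 and EFEMP1 at 8.68, above the other SF539 arrays with PARK2 siRNA, and ANPEP at 9.31, CXCL2 at 8.45 and PLN at 2.70, below them. The remaining value was SRGN in SNB19 siRNA1 replicate 1, at 3.41.

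The line difference depended on which PARK2 siRNA was used for 285 genes in all. Among genes named for their size the line difference with siRNA2 minus that with siRNA1 was 4.57 for CEMIP, 3.25 for AKR1B10, 3.01 for TIMP3, 2.98 for CD180, 2.85 for DAPK1, 1.37 for SCRG1, 1.08 for ME1 and 0.58 for MFAP3L. It was -0.92 for PTPRZ1, -0.93 for NDP, -2.30 for CXCL2, -2.31 for CXCL8, -2.62 for MMP1, -2.70 for IL11 and -2.75 for PLN. For ME1, MFAP3L, PTPRZ1 and NDP the limma adjusted p lay between 0.0445 and 0.0487, close to the threshold. CEMIP, IL11 and CXCL2 lost their call in some fits without 1 array, as given above.

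The line difference with the PARK2 siRNAs minus that with scramble passed for 1629 genes in all. Among genes named for their size it was positive for IFI27 (8.54), BST2 (6.35), MX1 (6.28), IFIT3 (6.12), IFIT1 (5.81), RSAD2 (4.97), COL3A1 (2.35), DAPK1 (1.65), TIMP3 (1.63), TPM2 (0.87) and SPP1 (0.75). It was negative for SCRG1 (-4.60), SERPINA3 (-4.14), GFAP (-3.72), PODXL (-3.35), ESM1 (-3.07), IL11 (-2.64), PLN (-1.95), COL11A1 (-1.60), FABP7 (-1.58), PLIN2 (-1.40), GPM6B (-1.22), COL6A3 (-1.13), MYH10 (-1.09), MMP1 (-1.0), TKTL1 (-0.86) and PTPRZ1 (-0.80). COL3A1 and TIMP3 were higher with siRNA2 than with siRNA1 in SF539, and TIMP3 was lower with siRNA2 in SNB19. The part of these siRNA2 arrays in the 2 values was not tested.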

How the results depend on the processing

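The count for the mean of both siRNAs, 4636 genes, lay between 4227 and 4906 when 1 array was left out and was 4655 with quantile normalization and 4585 with median centring. With every probe set tested on its own 7181 probe sets passed, and 6229, 5732 and 6417 with siRNA1, siRNA2 and scramble. A 1.5-fold minimum left 1667 genes for the mean of both siRNAs, 1480 with siRNA1, 1440 with siRNA2, 1521 with scramble, 30 for siRNA2 minus siRNA1 and 265 for PARK2 siRNAs minus scramble. For siRNA2 minus siRNA1 the robust prior gave 429 genes, the arrays compared alone 126, and leaving out 1 array 77 to 2203 genes, the latter without SF539 siRNA2 replicate 1. For PARK2 siRNAs minus scramble leaving out 1 array gave 952 to 2686 genes. The cause of these changes was not tested, except that separate probe sets are more tests and a minimum fold is a stricter one.

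The median of the collagen list turned from 0.22 to -0.028 without SF539 siRNA2 replicate 2, and over all fits without 1 array lay between -0.028 and 0.653. That of the integrins turned from 0.27 to -0.005 with the dimmest 40% of genes left out. GLUD1, not called, differed by -0.186 averaged over its probe sets.

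With the replicate number as a block 4638 genes passed for the mean of both siRNAs, 4563 of them shared with the fit without it, and 4034, 3774, 233, 4182 and 1585 for siRNA1, siRNA2, their difference, scramble and PARK2 siRNAs minus scramble. Replicate numbers did not pair the arrays: deviations correlated between -0.18 and 0.109 over 15 pairs of groups, 1 of them over 0.1. The SF539 siRNA2 arrays got a weight of 0.254 each, the others 0.822 to 1.612. Low levels have little signal over background, so large differences from them are bounds.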
